A study of Mus musculus with 32 samples.

Results

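The cytosolic ribosomal protein genes were taken as the probes whose gene name starts with Rpl or Rps followed by a digit, without the Rps6k kinase names. The rule found 87 genes with 182 probes among the 24521 gene names and 37304 probes of the normalized table. The array design carried 88 such names on 185 probes, and Rpl10l had no probe that passed the signal filter. Of the 87 genes, 43 encode proteins of the large subunit and 30 proteins of the small subunit. Another 7 were paralogs or retrogenes (Rpl3l, Rpl7l1, Rpl22l1, Rpl36al, Rpl39l, Rps27l and Rpl37rt), 6 were pseudogenes by name or by RefSeq, such as Rpl31-ps12 and Rps4l, and 1 was a binding partner of a ribosomal protein (Rps19bp1). The rule itself used names only, and measured values entered only through the signal filter that every probe of the table had passed.

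Gene expression was measured in interscapular brown adipose tissue of male C57BL6/J mice on 32 single-colour arrays, 8 in each of 4 groups. Total ChREBP-KO mice lacked both isoforms of the glucose-responsive transcription factor ChREBP (Mlxipl-null mice), and ChREBPβ-KO mice lacked in every tissue the alternative first exon of Mlxipl that is specific to the shorter β isoform, after CRISPR/Cas9 editing of embryos. Each KO group had its own WT littermates, called here the total-line WT and the β-line WT. All mice, WT included, had been fasted for 24 h and then refed for 18 h with food and with 20% glucose in the drinking water, so that no fasted or unchallenged tissue entered any comparison. The sources used here do not give the age of these mice. The labels number the arrays of each group but name no animals, so that p-values measure the spread between arrays.

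A ribosome is built from ribosomal RNAs and a set of ribosomal proteins that are needed in nearly equal amounts, and the genes of these proteins are among the most strongly expressed in most cells. Their mRNAs typically begin with a cytosine followed by a run of pyrimidines, the 5′ terminal oligopyrimidine (TOP) motif. This motif places their translation under control of the kinase complex mTORC1, through the RNA-binding protein LARP1, in response to nutrients and insulin. A change in translation through this motif is not visible in mRNA levels, which were the quantity measured here.

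The start sites of some members that recur below are shown to let a reader see this motif. Each line gives 15 bases before and 15 bases from the annotated start of the gene, on its own strand (RefSeq, GRCm38.p6). Capitals mark a C followed only by C or T over at least 6 bases in all, beginning within 10 bases of the start.
Rpl38, chr11:114668565-114668594, plus strand: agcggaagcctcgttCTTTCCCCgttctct
Rpl28, chr7:4792950-4792979, plus strand: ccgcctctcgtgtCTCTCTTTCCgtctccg
Rpl27a, chr7:109519180-109519209, plus strand: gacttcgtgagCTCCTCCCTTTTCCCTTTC
Rps18, chr17:33955651-33955680, minus strand: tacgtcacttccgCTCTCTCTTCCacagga
Rpl22l1, chr3:28805493-28805522, plus strand: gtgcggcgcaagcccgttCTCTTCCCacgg
Rpl26, chr11:68901551-68901580, plus strand: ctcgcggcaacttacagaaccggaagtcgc
Rpl7l1, chr17:46782642-46782671, minus strand: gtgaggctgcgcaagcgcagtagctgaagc
Rps19bp1, chr15:80264292-80264321, minus strand: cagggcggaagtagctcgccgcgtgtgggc
Rpl3l, chr17:24727811-24727840, plus strand: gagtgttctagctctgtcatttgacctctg

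Rpl38, Rpl28, Rpl27a, Rps18 and Rpl22l1 carried such a run, whereas Rpl26, Rpl7l1, Rps19bp1 and Rpl3l had none in these windows, which depend on the annotated start. Rpl22, whose window is not printed, had no run either. For Rpl3l and Rpl22, 2 windows each were at hand. A window was at hand for 63 of the 87 genes, and 33 of these (52.4%) held a run, compared with 5910 of all 27025 genes with a window (21.9%). The median difference between total ChREBP-KO mice and their WT littermates was −0.02 on the log2 scale for the 33 members with a run and −0.03 for the 30 members without one.

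On each array between 64.4% and 71.1% of the spots lay well above background, and no spot was saturated. Values are log2 median intensities after quantile normalization, a step that gives the probe at a given brightness rank the same value on every array. Differences were tested with limma over all probes with Benjamini-Hochberg adjustment, each gene being represented by its brightest probe and called at an adjusted p under 0.05. The brightest probe of Mlxipl was lower in both KO groups, by −2.48 in total ChREBP-KO mice (adjusted p = 2.02e-24, limma) and by −1.50 in ChREBPβ-KO mice (adjusted p = 7.09e-17). Of its other 2 probes, both much dimmer, one was lower as well, by −0.77 and −1.14, while the other gave 0.14 (adjusted p = 0.0680, limma) and −0.08 (adjusted p = 0.625, limma) and was not called. Ucp1, the uncoupling protein of thermogenesis in brown adipocytes, was bright on all arrays, between 18.22 and 18.62. Other brown adipocyte markers were less bright or varied more. Prdm16 lay between 9.66 and 10.99, Elovl3 between 9.88 and 14.87 and Dio2 between 10.04 and 15.61. The 10 markers of skeletal muscle were bright in the total line and mostly dim in the β line, and this touches the comparison of the WT groups given last. As bulk tissue was measured, fewer cells of a type and less RNA per cell cannot be told apart.

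Probes of ribosomal proteins were among the brightest on the arrays. Of the 182 member probes, 42 lay among the 500 brightest and 99 (54.4%) among the 1000 brightest, of which they made up 9.9%. No member probe was brighter than rank 120 on any array. These ranks order probes and not mRNA abundance, since different probes hybridize with different strength. Arrays of 1 group scattered little for these genes: the median SD within groups was 0.0731 over member probes and 0.161 over all probes. Other probes of the same brightness were not compared, so the small scatter is not shown to be particular to the members.

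Rank ties were common among these probes. Over the 32 arrays, 72 member probes had fewer than 32 distinct normalized values, and 21 of them (11.5%) had fewer than 30, compared with 835 of all probes (2.24%). The members with the fewest values were Rpl37rt with 22, Rpl41 with 24, Rpl11 with 25, and Rps18, Rps29, Rps16 and Rpl35a with 27 each. The Rpl37rt probe, of a retrogene copy of Rpl37, moved only between ranks 161 and 234, and 17 of its 32 arrays shared a value with another array. The Rpl41 probe moved between ranks 133 and 231, that of Rpl11 between 130 and 212, that of Rps18 between 120 and 211, and that of Rps29 between 197 and 296. At the extreme, the probe of the 18S ribosomal RNA gene Rn18s, which is no member, had 1 value on all arrays. The normalized table of the authors, also quantile normalized, had 6 member probes with fewer than 30 distinct values, so the count differed between the 2 versions. When the arrays were instead scaled to their 75th percentile, no member probe had fewer than 30 distinct values. The median SD then rose to 0.110 over member probes and to 0.180 over all probes. The quantile values were the less scattered ones for 168 of the 182 member probes.

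**Figure D1:**
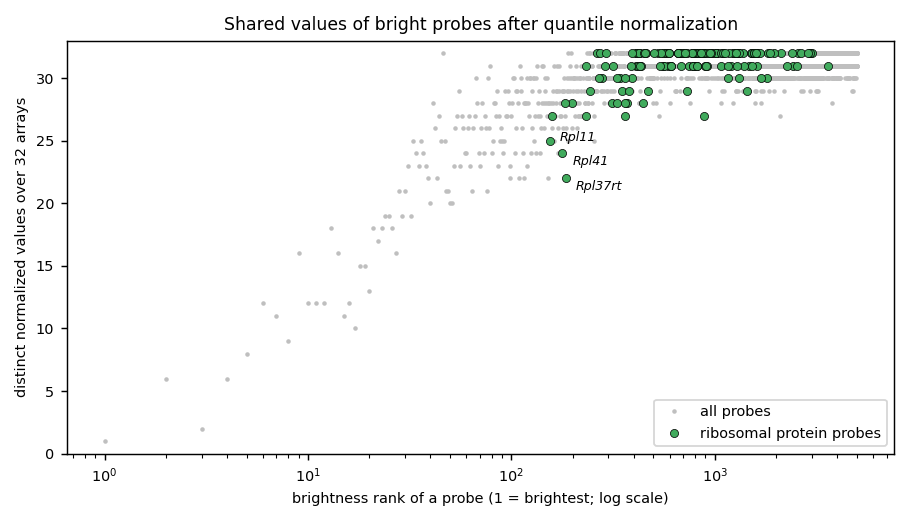
Number of distinct quantile-normalized values over the 32 arrays (vertical axis) against the brightness rank of each probe (horizontal axis, log scale), with member probes drawn over all probes. The plot ends at rank 5000, and Rpl11, Rpl41 and Rpl37rt are labelled, with 25, 24 and 22 distinct values.

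Total ChREBP-KO mice were compared with their WT littermates to see which ribosomal protein mRNAs differed when both isoforms were missing. A total of 34 of the 87 genes were called, 15 higher and 19 lower, whereas 44.1% of all genes tested were called in the same comparison, 22.9% higher and 21.1% lower. The members' share of 39.1% was thus no larger than the background share. Differences were small, between −0.41 and 0.26 on the log2 scale, with a median of −0.02 over the members and 0.01 over all genes. After quantile normalization both subunits moved in both directions. Of 43 large-subunit genes, 7 were called higher and 7 lower, and of 30 small-subunit genes, 8 were higher and 6 lower. The calls among paralogs and pseudogenes were all on the lower side. They were 3 of 7 paralogs or retrogenes and 2 of 6 pseudogenes. After 75th percentile scaling the calls of subunit genes were mostly on the lower side too. Large-subunit genes then gave 2 higher and 13 lower, and small-subunit genes 0 higher and 11 lower. Of all genes, 25.7% were then called higher and 19.9% lower, so no trait of a class is read from these counts.

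The 5 largest increases were those of Rpl38, Rpl36, Rpl27a, Rpl28 and Rps18. Rpl38, a large-subunit protein whose loss causes the skeletal defects of the Tail-short mouse, had log2 values of 16.16, 16.25 and 16.30 (lowest, median and highest of 8) in total-line WT and 16.42, 16.48 and 16.64 in KO mice (probe at chr11:114533580-114533639, build mm9). All KO arrays lay above all WT arrays. The difference was 0.26 ± 0.0374 (SE, n = 8 per group, adjusted p = 9.19e-07, limma) and within the 4 wash batches it ranged from 0.18 to 0.38. Rpl27a, another large-subunit protein (chr7:116664097-116664156), lay between 15.20 and 15.32 in WT and between 15.41 and 15.57 in KO mice, again without overlap, with a difference of 0.22 ± 0.0348 (adjusted p = 4.35e-06, limma). Its 2 probes were both called higher.

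Rpl36 (chr17:56753612-56753674) lay between 16.44 and 16.56 in WT and between 16.67 and 16.86 in KO mice, and Rpl28 (chr7:4746095-4746154) between 16.36 and 16.44 in WT and between 16.50 and 16.72 in KO mice. Neither pair of groups overlapped. The differences were 0.23 ± 0.0354 for Rpl36 (adjusted p = 2.37e-06, limma) and 0.22 ± 0.0372 for Rpl28 (adjusted p = 1.60e-05, limma). Rps18 (chr17:34088984-34089043), a protein of the small-subunit head and a common reference gene in PCR work, lay between 16.81 and 17.04 in WT and between 17.01 and 17.27 in KO mice. Its groups overlapped slightly, and the difference of 0.19 ± 0.0539 (adjusted p = 0.00497, limma) was met by its brightest probe only. The other 2 Rps18 probes differed by 0.06 and −0.12, and neither was called.

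Among the decreases, Rpl26 had the smallest adjusted p. This large-subunit protein lies near the exit of the peptide tunnel. Its brightest probe (chr11:68716730-68716789) lay between 15.03 and 15.19 in WT and between 14.68 and 14.79 in KO mice, with no overlap. The difference was −0.34 ± 0.0306 (adjusted p = 6.19e-11, limma), between −0.43 and −0.29 within the wash batches. All 4 Rpl26 probes were called lower, by −0.33 to −0.59. Rps19bp1, which encodes a partner of RPS19 that also binds the deacetylase SIRT1, had values of 11.56, 11.69 and 11.93 in WT and of 11.18, 11.33 and 11.44 in KO mice (chr15:80091168-80091227). These groups did not overlap either, and the difference was −0.40 ± 0.0569 (adjusted p = 8.68e-07, limma).

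Rps4l, a relative of the X-linked Rps4x that RefSeq lists as a pseudogene, showed the largest decrease, −0.41 ± 0.0807 (chr6:148304018-148304077, adjusted p = 8.86e-05, limma). Its arrays spread more widely, between 12.54 and 12.97 in WT and between 12.09 and 12.65 in KO mice, and overlapped. Rpl7l1, the paralog of Rpl7 (chr17:46915373-46915432), lay between 9.05 and 9.29 in WT and between 8.63 and 9.02 in KO mice without overlap, with a difference of −0.34 ± 0.0607 (adjusted p = 3.12e-05, limma). Rpl22l1, the paralog of Rpl22 (chr3:28706237-28706296), lay between 12.63 and 13.10 in WT and between 12.49 and 12.78 in KO mice. The groups overlapped, and the difference was −0.30 ± 0.0641 (adjusted p = 3.25e-04, limma).

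**Figure D2:**
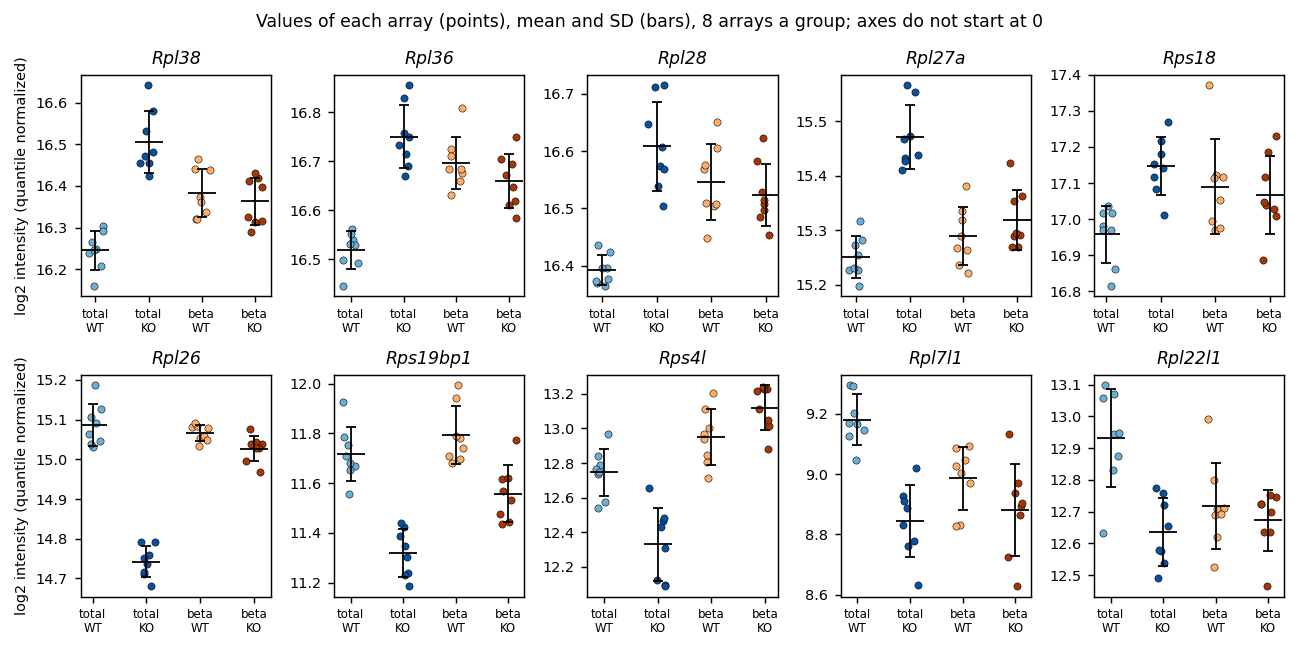
Log2 values of 10 members on each of the 32 arrays by group, with group means. The upper row shows Rpl38, Rpl36, Rpl27a, Rpl28 and Rps18 and the lower row Rpl26, Rps19bp1, Rps4l, Rpl7l1 and Rpl22l1. Rpl38 and Rpl26 show no overlap between total ChREBP-KO arrays and their WT littermates, in opposite directions.

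Several probes were at hand for 59 genes, and they did not always move together. In 8 genes every probe was called lower (Rpl14, Rpl26, Rpl31-ps12, Rpl36al, Rps24, Rps27, Rps3 and Rps6), and in 4, such as Rpl27a, Rpl28 and Rpl36, every probe was called higher. Probes of Rpl6, Rps19 and Rps20 were called in both directions. For Rpl6 the 2 brightest probes fell by 0.14 each, whereas the dimmest rose by 0.30. Such counts of agreeing or conflicting probes were not made over all genes, so no trait particular to the members is read from them. Near-identical sequence limits the reading of some probes, since 27 member probes of 22 genes shared a stretch of 30 bases with a probe designed for another gene name.

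The direction of many members depended on how the arrays were scaled. With each array scaled to its 75th percentile, 2 of the 87 genes were called higher and 33 lower in total ChREBP-KO mice, while 25.7% of all genes were called higher and 19.9% lower. With the processed signals of the scanner software scaled in the same way, 3 were higher and 34 lower, against 20.9% and 23.3% of all genes. Under scaling to the median of each array, 0 were higher and 50 lower, against 15.6% and 26.2% of all genes. The choice of percentile shifts all genes alike. The median over the members was −0.11 under the first scaling, against 0.06 over all genes. Set against the median of all genes, the members stood at −0.03 after quantile normalization and at −0.12 with the processed signal. They stood at −0.17 after scaling the median intensity to the 50th, 75th or 90th percentile.

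Of the 15 genes called higher after quantile normalization, only Rpl38 and Rpl27a were called higher with both 75th percentile scalings. Rpl38 then differed by 0.15 (adjusted p = 0.0182, limma) and Rpl27a also by 0.15 (adjusted p = 0.0226, limma), on the 75th percentile scale of the median intensity. Within the wash batches Rpl38 then ranged from −0.03 to 0.28. Rpl36 and Rpl28 kept a positive value of 0.11 each but were not called on that scale (adjusted p = 0.0617 and 0.0751, limma), while Rpl36 was called with the processed signal (0.13, adjusted p = 0.0315, limma). Rps18, Rpl11, Rpl22 and Rpl35 turned to values below 0, Rps18 to −0.0015 and Rpl11 to −0.07. On the lower side, 18 of the 19 genes were called lower under both other scalings, with Rpl26, Rps19bp1, Rpl7l1, Rpl22l1 and Rps4l among them. The exception was Rpl37, whose probe lay well above background on only 4 of 8 total ChREBP-KO arrays. Rpl26 then differed by −0.43 (adjusted p = 8.46e-08, limma) and Rps6, the ribosomal substrate of S6 kinase, by −0.25 (adjusted p = 0.00121, limma).

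**Figure D3:**
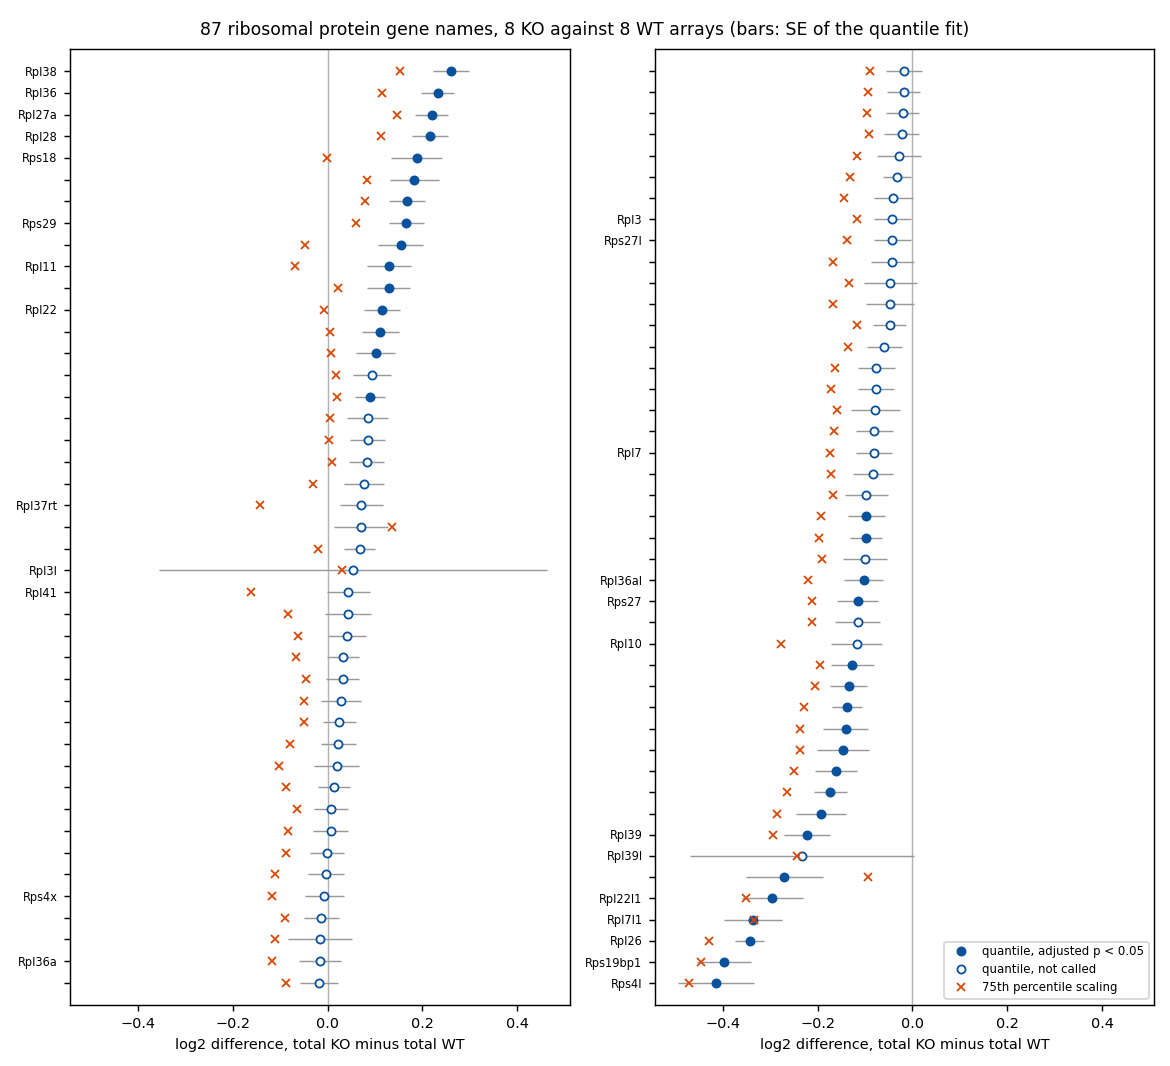
Log2 difference between total ChREBP-KO mice and WT littermates for the 87 genes, ordered by its size, with the names of some genes given at the axis. Circles give quantile-normalized values with SE, filled where the adjusted p was under 0.05, and crosses give the same genes after 75th percentile scaling. The crosses lie below the circles for most genes, with medians of −0.11 and −0.02.

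The 2 treatments of the data differ in the level they assign to a given rank. Scaled to the 75th percentile, the probe at rank 200 had a log2 value of 7.77 ± 0.072 (SD, n = 8) in total-line WT and of 7.53 ± 0.061 in total ChREBP-KO mice. The WT arrays lay between 7.69 and 7.88 and the KO arrays between 7.44 and 7.61, with no overlap. KO minus WT was −0.18 at rank 100, −0.14 at rank 500, −0.09 at rank 1000 and −0.05 at rank 5000, but 0.21 at rank 1 and 0.16 at rank 10. Quantile normalization sets these differences to 0 by construction, and most member probes lie within this range of ranks. In ChREBPβ-KO mice the levels at the same ranks differed from those of the β-line WT by −0.04 to 0.01. The cause of the lower level at these ranks was not tested.

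**Figure D4:**
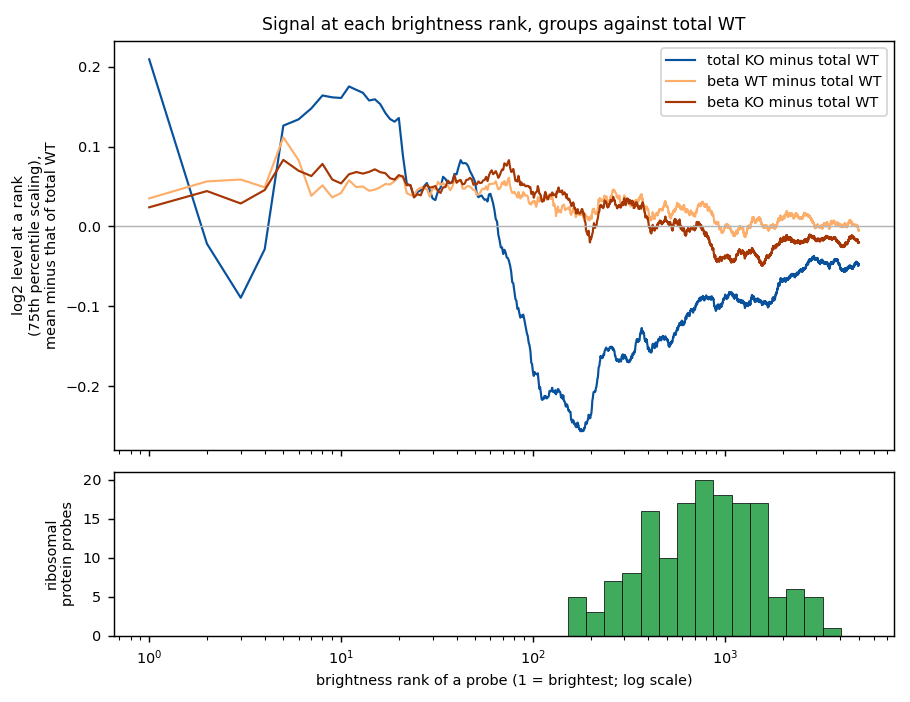
Level at each brightness rank after 75th percentile scaling, as the difference in log2 units from the mean of total-line WT (rank on a log axis), with a histogram of the member probes by rank below. Total ChREBP-KO arrays lie lowest near rank 200, at −0.24, and ChREBPβ-KO arrays stay close to the β-line WT.

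The wash batches recorded in the labels each held arrays of all groups. The median over the 87 genes within the 4 batches, for total ChREBP-KO mice against WT littermates, was −0.04, −0.06, 0.02 and −0.01 after quantile normalization and −0.23, −0.08, 0.01 and −0.12 after 75th percentile scaling. The batch with a median above 0 was the same one in both. With the slide as a fixed block the number of called members fell from 34 to 20, 4 higher and 16 lower, while the share of all genes fell from 44.1% to 33.5%, 17.7% higher and 15.8% lower. Macrophage markers moved with this comparison: 5 of 5 were called lower in total ChREBP-KO mice, with a median of −0.76, and their mean log2 level was 10.25 to 11.07 in WT and 9.70 to 10.15 in KO arrays. Of the brown adipocyte markers, 4 of 8 were called higher and 2 lower, and 1 of 7 lymphocyte markers was higher and 1 of 4 endothelial markers lower. The part of these cell types in the values of the ribosomal protein genes was not tested.

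ChREBPβ-KO mice were compared with the β-line WT to see how the same mRNAs differed when the β isoform was missing. The study reported raised ChREBPα mRNA and protein in brown fat of such males. The comparison therefore holds both changes, and their parts were not tested. A single member, Rps19bp1, was called, compared with 2.70% of all genes tested. No other member passed the test, and large-subunit genes differed by between −0.09 and 0.12 and small-subunit genes by between −0.06 and 0.06. The median was −0.02 over the members and −0.0030 over all genes.

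Rps19bp1 had log2 values of 11.68, 11.76 and 11.99 (lowest, median and highest) in the β-line WT and of 11.43, 11.55 and 11.77 in ChREBPβ-KO mice. The groups overlapped, yet each of the 8 KO arrays lay below the WT mean, and the difference was negative in each wash batch, between −0.26 and −0.18. The difference was −0.23 ± 0.0569 (adjusted p = 0.0179, limma), and it was called under both 75th percentile scalings as well, with −0.25 and −0.28. It was not called when the 2 β-line groups were fitted alone, with the slide as a fixed block, under median scaling, or without β-line WT array 6. Its decrease in total ChREBP-KO mice was −0.40, and the difference between these 2 decreases, 0.16 ± 0.0804, did not pass the test (adjusted p = 0.147, limma).

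The difference between the KO effects, ChREBPβ-KO effect minus total ChREBP-KO effect, was tested directly. It was called for 13 members, 7 with a positive and 6 with a negative value, compared with 25.2% of all genes. Without total ChREBP-KO array 5, or without ChREBPβ-KO array 6, the count was 8. All 6 negative values (Rpl38, Rpl36, Rpl28, Rps18, Rpl27a and Rps29) were called after quantile normalization only, and none under the 75th percentile scalings. Rpl38 gave −0.28 ± 0.0529 (adjusted p = 1.71e-04, limma) after quantile normalization and −0.18 (adjusted p = 0.0627, limma) after 75th percentile scaling.

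Rpl26, Rps4l, Rpl7l1 and Rpl22l1 had a called difference under all 3 scalings. For Rpl26 the ChREBPβ-KO arrays lay between 14.97 and 15.08 and the β-line WT arrays between 15.03 and 15.09, and the KO effects differed by 0.30 ± 0.0432 (adjusted p = 2.48e-06, limma). Rps4l lay between 12.72 and 13.21 in β-line WT and between 12.88 and 13.24 in ChREBPβ-KO mice. Its difference of 0.59 ± 0.114 (adjusted p = 2.47e-04, limma) was the largest among the 13 called members. The calls of Rpl7l1 (0.23, adjusted p = 0.0456, limma) and Rpl22l1 (0.25, adjusted p = 0.0416, limma) sat at the threshold and were lost in 19 and 20 of the 32 fits that left out 1 array.

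The WT littermates of the 2 lines were compared to see how far the control groups differed for these genes. The comparison shares the total-line WT arrays with the total ChREBP-KO comparison. A total of 24 members were called, 10 higher and 14 lower in the β-line WT, compared with 38.9% of all genes, 24.8% higher and 14.1% lower. After 75th percentile scaling 14 were called, 8 higher and 6 lower, compared with 38.0% of all genes, 25.1% higher and 12.9% lower. The median over the members was 0.02 and that over all genes 0.05.

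A single gene differed by far more than the rest. Rpl3l, a paralog of Rpl3 expressed mainly in skeletal and heart muscle (chr17:24872413-24872681, mm9), had log2 values of 8.38, 10.83 and 11.31 (lowest, median and highest) in total-line WT and of 4.63, 5.60 and 7.61 in β-line WT. Total ChREBP-KO arrays gave 9.60, 10.52 and 11.21 and ChREBPβ-KO arrays 4.77, 5.09 and 7.09. All arrays of the total line lay above all arrays of the β line. The probe was well above background on all arrays of the total line, but on 5 of 8 WT and 6 of 8 KO arrays of the β line. The difference between the WT groups was −4.39 ± 0.409 (adjusted p = 7.29e-10, limma), between −6.39 and −3.57 within the wash batches, and neither KO comparison called the gene.

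Skeletal muscle markers moved in the same way. All 10 markers (Acta1, Ckm, Myh1, Myh2, Myh4, Mylpf, Tnnt3, Tnni2, Actn3 and Atp2a1) were called lower in β-line WT, by −4.57 to −7.15, and their mean log2 level per array was 12.6 to 15.9 in total-line WT and 5.54 to 11.7 in β-line WT. Ckm, the muscle creatine kinase, was well above background on 8 of 8 total-line WT arrays and on 4 of 8 β-line WT arrays. Across the 16 arrays of the total line the Rpl3l value followed the marker mean with a Pearson r of 0.985 (Spearman rho 0.965), and across the 16 arrays of the β line with an r of 0.881 (rho 0.774). These are descriptions over arrays that share wash batches, and the 2 lines form separate clusters, so that no pooled value is given. With the means of the muscle and liver markers as covariates, 2 of the 24 members were called, 1 higher and 1 lower, compared with 13.9% of all genes, 8.79% higher and 5.10% lower. Rpl3l was the lower one, at −1.53 ± 0.330 (adjusted p = 0.00244, limma) in place of −4.39, and it was called lower under each of the 47 alternatives that gave it a value. The muscle marker means did not overlap between the WT groups, so the covariate fit cannot separate muscle content from the line. No conclusion is drawn from its smaller count or smaller difference.

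**Figure D5:**
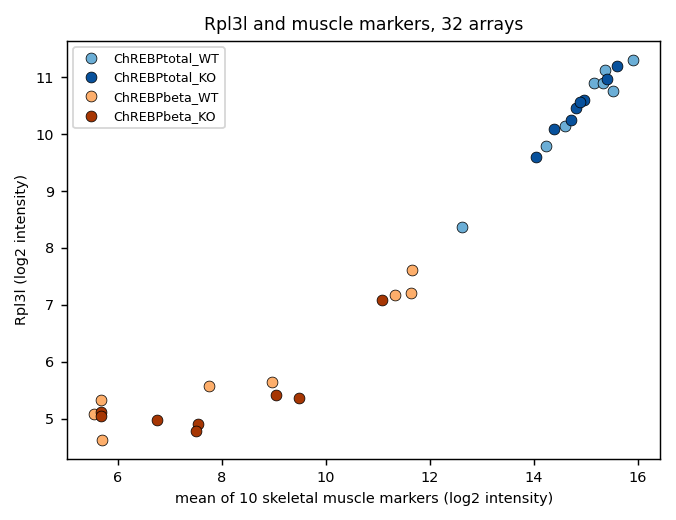
Rpl3l on each array (vertical axis, log2) against the mean log2 level of 10 skeletal muscle markers on the same array (horizontal axis), by group. Arrays of the total line lie at the upper right, with marker means of at least 12.6, and arrays of the β line at the lower left, and Rpl3l rises with the marker mean within both lines.

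Among the other members, Rpl39l, a paralog of Rpl39 known from testis, was lower in β-line WT by −0.60 ± 0.236 (adjusted p = 0.0436, limma), with widely scattered arrays of 9.13 to 10.09 in total-line WT and 8.03 to 10.24 in β-line WT. Rpl4, a large-subunit protein that lines the peptide tunnel, lay between 15.64 and 15.91 in total-line WT and between 15.42 and 15.72 in β-line WT, a difference of −0.25 ± 0.0549 (adjusted p = 4.20e-04, limma). Rpl22l1 and Rpl7l1 were lower by −0.21 and −0.19. The call of Rpl39l was lost in 10 of the 32 fits that left out 1 array. Increases were largest for Rps4l (0.20), Rpl11 (0.19), Rpl36 (0.18) and Rps25 (0.16). Of these, Rps4l was not called after 75th percentile scaling, and its call was lost in 11 of the 32 fits that left out 1 array. For Rpl11, which together with Rpl5 binds the p53 regulator MDM2, and for Rpl36 and Rps25 the WT groups did not overlap. Macrophage markers were lower in β-line WT too, 5 of 5 with a median of −0.64, as were 2 of 3 blood markers, with a median of −0.31. Endothelial markers were higher in 3 of 4 cases (median 0.34) and lymphocyte markers in 3 of 7 (median 0.32). Of 8 liver markers 1 was called higher and 1 lower, with a median of 2.01 and with mean log2 levels of 7.23 to 12.2 on total-line WT arrays and 7.10 to 13.9 on β-line WT arrays. The part of these cell types in the values above was not tested.

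The pairs of a ribosomal protein gene and its less widely used paralog are set side by side, and the difference within a pair was not tested. Rpl7 differed by −0.08 ± 0.0377 in total ChREBP-KO mice and was not called (adjusted p = 0.0803, limma), whereas Rpl7l1 differed by −0.34. Rpl22 was called higher by 0.11 and Rpl22l1 lower by −0.30, and the former value fell to −0.01 after 75th percentile scaling. Rps4x differed by −0.01 and Rps4l by −0.41. For Rpl39, which lies at the tunnel exit, the parent gene was the one called. It differed by −0.22 ± 0.0489 (adjusted p = 3.70e-04, limma) and Rpl39l by −0.23 ± 0.236, which was not called. Rpl3 differed by −0.04 and Rpl3l by 0.05, and neither was called. Rpl36al was lower by −0.10 and Rpl36a, at −0.02, was not called. For Rps27 and Rps27l the values were −0.12, called, and −0.04, not called. The call of Rpl36al was lost in 13 of 48 alternatives and that of Rps27 in 7 of 48. Of the 15 genes of these pairs with a probe, 7 were called in total ChREBP-KO mice, 0 in ChREBPβ-KO mice and 8 between the WT groups, where the shares of all genes were 44.1%, 2.70% and 38.9%.

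Genes around the ribosome were read in the same fits, in which 22.9% of all genes were called higher and 21.1% lower in total ChREBP-KO mice. Ribosomal proteins whose names fall outside the rule numbered 7, and 2 of them were called higher in total ChREBP-KO mice. Rpsa, the small-subunit protein also known as laminin receptor, was higher by 0.32 ± 0.0467 (adjusted p = 1.61e-06, limma) and by 0.21 after 75th percentile scaling, and Fau, the ubiquitin-like fusion with the ribosomal protein S30, was higher by 0.12, which became 0.0034 after that scaling. Of 11 elongation factors and other mRNAs of the TOP class, 2 were called higher and 2 lower. Pabpc1, the poly(A)-binding protein, was higher by 0.35 and Eef2, the translocase, by 0.15, whereas Btf3 was lower by −0.27 and Eef1a1, which delivers aminoacyl-tRNA, by −0.25.

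Of 28 initiation factors, 13 were called lower and 2 higher, against 21.1% and 22.9% of all genes, with a median of −0.11 beside 0.01 over all genes. The largest decreases were those of Eif5, at −0.89 ± 0.0852 (adjusted p = 3.38e-10, limma), and Eif5b, at −0.62. The subunits Eif3l and Eif3k were higher by 0.48 and 0.12, the latter at −0.0030 after 75th percentile scaling, under which 19 initiation factors were lower and 1 higher, against 19.9% and 25.7% of all genes. Of 32 ribosome biogenesis genes, 12 were called higher and 1 lower, with a median of 0.12. Ubtf, which drives transcription of ribosomal RNA genes, was higher by 0.53 ± 0.0921 (adjusted p = 1.78e-05, limma) and the nucleolar chaperone gene Nolc1 by 0.45, whereas the nucleolar protein gene Npm1 was lower by −0.13. After 75th percentile scaling, 10 were higher and 1 lower.

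Among 19 genes of mTORC1 and of the control of ribosomal protein mRNAs, 6 were called higher and 6 lower in total ChREBP-KO mice, with the same shares of all genes beside them. Mtor itself was lower by −1.06 ± 0.0803 (adjusted p = 1.19e-12, limma), with group means of 11.44 ± 0.124 (SD, n = 8) in WT and 10.38 ± 0.0818 in KO mice, and Deptor, an inhibitor bound to mTOR, was lower by −1.79. Sesn2, a leucine sensor that restrains mTORC1, was higher by 1.24 and Myc, a driver of ribosome biogenesis genes, by 1.15. In ChREBPβ-KO mice 2 genes of all these lists were called, Sesn2, higher by 0.60 ± 0.136 (adjusted p = 0.00996, limma), and Pabpc1, higher by 0.22 ± 0.0573 (adjusted p = 0.0297, limma), compared with 2.70% of all genes. The call of Pabpc1 was lost in 15 of 48 alternatives, among them 7 of the 32 fits that left out 1 array.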

How the data were processed

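Total RNA of 32 samples was labelled with Cy3 and hybridized to Agilent mouse arrays, which the authors scanned with Agilent Feature Extraction 10.10.1.1. The deposited scanner files give median intensities and processed signals for each spot. The deposited normalized table gives log2 values made by the authors with a spot filter, quantile normalization and the median over replicated probes. Probe coordinates are those of the files, on mm9.

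The same steps were repeated here from the deposited median intensity, so that the effect of each could be changed. A spot was kept when the software had found it with a positive signal that stood well above background, on 26 or more of the 32 arrays or on 6 or more of 1 group. Log2 values were quantile normalized and the median over spots of a probe taken, which left 37306 probes of 24523 gene names. The mean absolute difference from the deposited log2 values was 0.00298. Groups were taken from the labels. Group means were fitted with limma 3.58.1 (lmFit and eBayes, R 4.3.3) on all 32 arrays, two-sided, with Benjamini-Hochberg adjustment over all probes. A gene was represented by its brightest probe and called at an adjusted p under 0.05. Scripts for tables and figures ran under Python 3.11.15. The fit was tested on simulated data.

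Named genes were the 5 highest and 5 lowest called members of each KO comparison and of the WT comparison, the paralog pairs, the 5 probes with the fewest distinct values, every member called in ChREBPβ-KO mice, and the 2 highest and 2 lowest called genes of each pathway list. Some members and the results that need them are not reported here. Other members named beside a count were chosen after their values were seen. The members and lists were chosen with earlier results of these data known. Alternatives changed the scaling, the background correction, the probe filter, the blocks, the probe summary and the arrays used. Members were matched to RefSeq by symbol (87 of 87). No array was left out or imputed in the values of the report, and the number of arrays limits their precision.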

Additional observations from a re-analysis of the deposited data

Results flagged for a closer look

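Among 188 groups of 8 arrays examined for the named genes and for the members' median, 15 held an array whose gap to its nearest neighbour took up an unusually large share of the whole range of its group. Chance alone gives such a gap in about 1 of 20 groups. Within the bright genes, the highest Rps18 array of the β-line WT, at 17.37, lay apart by a gap of 0.621 of the range. For Rpl41 the gaps took 0.581 of the range in β-line WT, 0.534 in total ChREBP-KO mice and 0.647 in total-line WT. For Rpl10 they took 0.571 in total ChREBP-KO mice and 0.661 in total-line WT, both at the highest array, for Rpl4 0.559 at the lowest total ChREBP-KO array, and for Rps4x 0.542 at the highest β-line WT array. Among the paralogs, the highest ChREBPβ-KO array of Rpl3l, at 7.09 with the next at 5.41, gave a gap of 0.727, and that of Rps27l one of 0.676. The lowest ChREBPβ-KO array of Rpl22l1 gave 0.592 and the highest total ChREBP-KO array of Rpl39l 0.541. Outside the members, Eif3k gave 0.550 in total-line WT, Ubtf 0.633 in total ChREBP-KO mice and Mtor 0.560 in β-line WT.

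The effects of the 2 deletions differed by the test of the difference itself (limma, adjusted p under 0.05) for 24 named genes, given here on the log2 scale as ChREBPβ-KO effect minus total ChREBP-KO effect. Members with a negative difference were Rpl38 (−0.28), Rpl36 (−0.27), Rpl28 (−0.24), Rps18 (−0.21), Rpl27a (−0.19) and Rps29 (−0.16). Members with a positive difference were Rps4l (0.59), Rpl26 (0.30), Rpl22l1 (0.25), Rpl7l1 (0.23) and Rpl39 (0.19). The call of Rpl39 was lost after 75th percentile scaling and in 16 of the 32 fits that left out 1 array. Among ribosomal proteins under other names the difference was −0.32 for Rpsa and −0.18 for Fau. It was 0.30 for Eef1a1 and 0.22 for Btf3. The initiation factors gave 0.63 for Eif5, 0.52 for Eif5b, −0.46 for Eif3l and −0.14 for Eif3k. The biogenesis genes Ubtf and Nolc1 gave −0.49 and −0.35. In the mTORC1 list Deptor gave 1.94, Mtor 0.88 and Sesn2 −0.64.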

How the results depend on the processing

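Scaling to the 50th or 90th percentile, and the muscle and liver covariates, were chosen after seeing the data. In total ChREBP-KO mice the members' median was −0.11 after 75th percentile scaling, −0.12 with the processed signal, 0.0096 in the deposited table, −0.21 at the 50th and −0.0496 at the 90th percentile. With the slide as a fixed block 20 members and 4 genes of the paralog pairs were called, and 11 of the latter at the 50th percentile. The 90th percentile moved the median of all genes to 0.12. In ChREBPβ-KO mice 0 members were called with the slide as a fixed block, with the β-line groups fitted alone and at the 50th percentile. The pathway lists gave 1 call with 75th, 50th or 90th percentile scaling, the strict probe filter, the wash batch block or the mean of probes, and 0 with the slide block or with these groups alone. For the difference between the KO effects, 7 members were called after 75th percentile scaling, 8 without the filter on dim probes, 22 when any probe counted and 8 at the 90th percentile. The median was then 0.0569 with the 75th percentile, 0.0621 with the processed signal, −0.0199 in the deposited table and 0.19 at the 50th percentile. Of the paralog pairs 1 gene was called without the dim filter and 8 at the 50th percentile. Between the WT groups 14 members were called after 75th percentile scaling, 42 when any probe counted, 6 at the 50th percentile and 2 with the covariates. The medians were 0.0504 with the 75th percentile, 0.0534 with the processed signal and 0.0635 at the 90th percentile. The pathway lists gave 47 calls with any probe, 17 at the 50th percentile and 4 with the covariates, and the paralog pairs 4 and 1 under the last 2. Fewer than 30 distinct values were found for 0 member probes after 75th percentile scaling of either signal and for 6 in the deposited table. The share of all genes called changed with the alternative too. Between the WT groups it was 38.9% after quantile normalization, 38.0% after 75th percentile scaling and 13.9% with the covariates. Counts given above without such a share are not read as a trait of the members.

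In total ChREBP-KO mice some named genes changed sign. After 75th percentile scaling Rps18 gave −0.0015, Rpl22 −0.0070, Rpl37rt −0.14, Rpl41 −0.16, Rpl11 −0.0699 and Eif3k −0.0030. With the processed signal Rps18 gave −0.0170, Rpl22 −0.0194, Rpl41 −0.13 and Rpl11 −0.0553. At the 50th percentile Rps18 and Eif3k gave −0.10, Rpl22 −0.10, Rpl37rt −0.24, Rpl41 −0.26, Rpl11 −0.17, Rps29 −0.0353, Fau −0.0917 and Eef2 −0.0257. Rpl11 gave −0.0087 at the 90th percentile and −0.000294 as the mean of its probes. Apart from the scaling of levels, the cause was not tested. Of 53 called results for named genes, 20 kept their call under every alternative that gave them a value, 17 of them under 48 alternatives and 3 under 47.

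Leaving out 1 array at a time gave 29 to 36 called members in total ChREBP-KO mice, 0 to 1 in ChREBPβ-KO mice, 8 to 16 for the difference and 20 to 26 between the WT groups. The medians ranged from −0.03 to −0.01, from −0.03 to −0.0002, from 0.0012 to 0.02 and from 0.0013 to 0.02. The pathway lists gave 43 to 48, 1 to 5, 26 to 35 and 28 to 34 calls, the 5 calls without β-line WT array 5. The paralog pairs gave 5 to 7, 0 in each fit, 1 to 4 and 6 to 9. The shares of all genes in these fits are not given, so the ranges describe stability only. The alternative that counts any probe of a gene gives no median.

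Arrays with the same number did not deviate together in every pair (0 of 8 pairs of the total line and 6 of 8 of the β line had a correlation over 0.1), so the numbers were not taken to pair mice. With the number as a replicate block 31 members were called in total ChREBP-KO mice, 1 in ChREBPβ-KO mice, 11 for the difference and 22 between the WT groups. The shares of all genes are not set beside these counts. The fit with the groups of 1 line alone gave no value for the difference between the lines. Precision is limited by the number of arrays, and for dim probes such as that of Rpl3l in the β line by signal over background.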
